A study of Mus musculus with 14 samples.

Results

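T, Cdx1, Cdx2, Cdx4 and Evx1 are transcription factor genes of the primitive streak and tail bud, the growth zone that lays down the trunk and tail of the mouse embryo. Chromatin immunoprecipitation followed by sequencing (ChIP-seq) was examined around these 5 genes, of 21887 protein-coding genes in the annotation. Overlapping peaks of the 2 replicates of a group were merged, and a merged stretch with a peak of each replicate is called a region. It was given to the protein-coding gene whose annotated start or end lay nearest to its strongest summit, within 100 kb. In all, 40 of 132214 regions in 6 groups were given to the 5 genes: 19 p300 and 1 RXRα region of gastruloids, 4 p300 and 4 RXRα regions of mouse embryonic stem cells (mESCs), and 4 Sp5 and 8 Zeb2 regions of gastruloids. No transcript was measured, so the name "tail bud genes" could not be checked against expression. A region near a gene need not act on it.

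T encodes Brachyury, a T-box factor needed for mesoderm and tail outgrowth. The Cdx genes encode caudal-type homeodomain factors that activate posterior Hox genes, and Cdx2 is also needed for trophectoderm and intestine. Evx1, an even-skipped-type homeobox gene of the late streak, lies beside the Hoxa cluster. Wnt signalling activates T and the Cdx genes in the streak, and retinoic acid, which acts through receptors paired with RXRα, opposes the posterior growth zone.

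All libraries came from mESCs that the labels call both an E14 triple reporter line and a dual Brachyury-GFP and Sox17-RFP reporter line; where the GFP reporter sits relative to the T gene is not given in the sources used here. Gastruloids, aggregates grown for 120 h from 300 sorted cells each, had received 3 μM CHIR99021, a GSK3 inhibitor that activates Wnt signalling, at 48 h; mESCs were grown with serum and LIF. p300, a coactivator found at active enhancers, carried V5 and miniTurboID at its own gene. RXRα, the Wnt-induced zinc-finger factor Sp5 and the repressor Zeb2 each carried HA and an FKBP12F36V degron at their own genes, in separate lines. p300 and RXRα were profiled in gastruloids and in mESCs, Sp5 and Zeb2 in gastruloids alone, with 2 libraries a group. The labels do not say whether replicates were separate cultures. Whole aggregates were used, so fewer cells with a bound site and less binding per cell cannot be told apart.

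The 12 ChIP lists differed in length, from 3111 peaks in the second RXRα gastruloid library to 75346 in the second p300 gastruloid library, and the first lists of RXRα in gastruloids (29867) and of Zeb2 (44310 against 12222 in the second) were much longer than the second. In a sample of 63 to 1507 peaks from each list, 8353 in all, the median peak held 12 to 31 fragments at its summit. The 2 inputs, 1 per cell type from the p300 line, gave 514 peaks (gastruloids) and 111 peaks (mESCs), none of them nearest to any of the 5 genes.

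The promoter sequences of T, Cdx2 and Evx1 are shown because a peak summit of a factor or of p300 found in both replicates lay inside each window. They are the RefSeq sequences of GRCm38.p6, from 250 bases before the annotated start to 50 bases from the start on, 5′ to 3′ on the gene's strand. Capitals mark matches to any of 6 short motifs searched on both strands: CTTTGAT (TCF/LEF), AGGTGTG (T-box), GGGCGG (GC box), CAGGTG (the Zeb2 E-box), AGGTCA (nuclear receptor core) and TTTATGG (Cdx). Of the 5 genes 4 were matched in the sequence table, all but Cdx1.
T: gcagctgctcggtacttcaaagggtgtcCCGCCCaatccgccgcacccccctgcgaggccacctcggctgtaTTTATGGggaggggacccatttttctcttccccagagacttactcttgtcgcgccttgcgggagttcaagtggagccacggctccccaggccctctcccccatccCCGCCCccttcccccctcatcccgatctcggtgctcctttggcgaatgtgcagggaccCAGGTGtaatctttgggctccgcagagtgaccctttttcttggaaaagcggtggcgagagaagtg
Cdx2: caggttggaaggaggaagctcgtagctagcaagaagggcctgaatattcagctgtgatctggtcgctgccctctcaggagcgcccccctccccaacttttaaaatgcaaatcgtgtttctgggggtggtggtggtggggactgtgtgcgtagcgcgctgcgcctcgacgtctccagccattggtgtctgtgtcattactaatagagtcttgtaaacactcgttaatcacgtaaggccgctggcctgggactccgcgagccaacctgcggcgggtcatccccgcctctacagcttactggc
Evx1: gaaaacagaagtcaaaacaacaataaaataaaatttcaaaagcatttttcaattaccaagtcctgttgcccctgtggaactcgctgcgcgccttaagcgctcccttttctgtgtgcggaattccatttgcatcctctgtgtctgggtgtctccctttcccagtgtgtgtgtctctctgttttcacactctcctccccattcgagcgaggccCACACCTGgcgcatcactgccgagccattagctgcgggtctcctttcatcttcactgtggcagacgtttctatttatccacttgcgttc

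The T window, chr17:8434173-8434472 on the plus strand, held 4 matches, with positions counted from the start base as 0. These were GC boxes from -222 to -217 and from -73 to -68, a Cdx motif from -178 to -172, and a Zeb2 E-box from -15 to -10. The Sp5 summit lay at -195, between the GC boxes. The Evx1 window, chr6:52313248-52313547 on the plus strand, held a T-box match from -39 to -33 that overlapped a Zeb2 E-box from -37 to -32, printed above as 1 run of capitals. The Cdx2 window, chr5:147307200-147307499 on the minus strand, held no match to the 6 motifs, although an Sp5 summit lay inside it. The Cdx4 window had 1 match, a Zeb2 E-box. Of 32851 promoter windows 35.7% held the GC box, 20.2% the Zeb2 E-box, 16.3% the nuclear receptor core, 5.85% the T-box, 3.73% the TCF/LEF and 2.75% the Cdx motif, so matches to the GC box and the Zeb2 E-box are common and those to the Cdx and T-box motifs less so. A match is a description of letters and not a binding site.

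**Figure D1:**
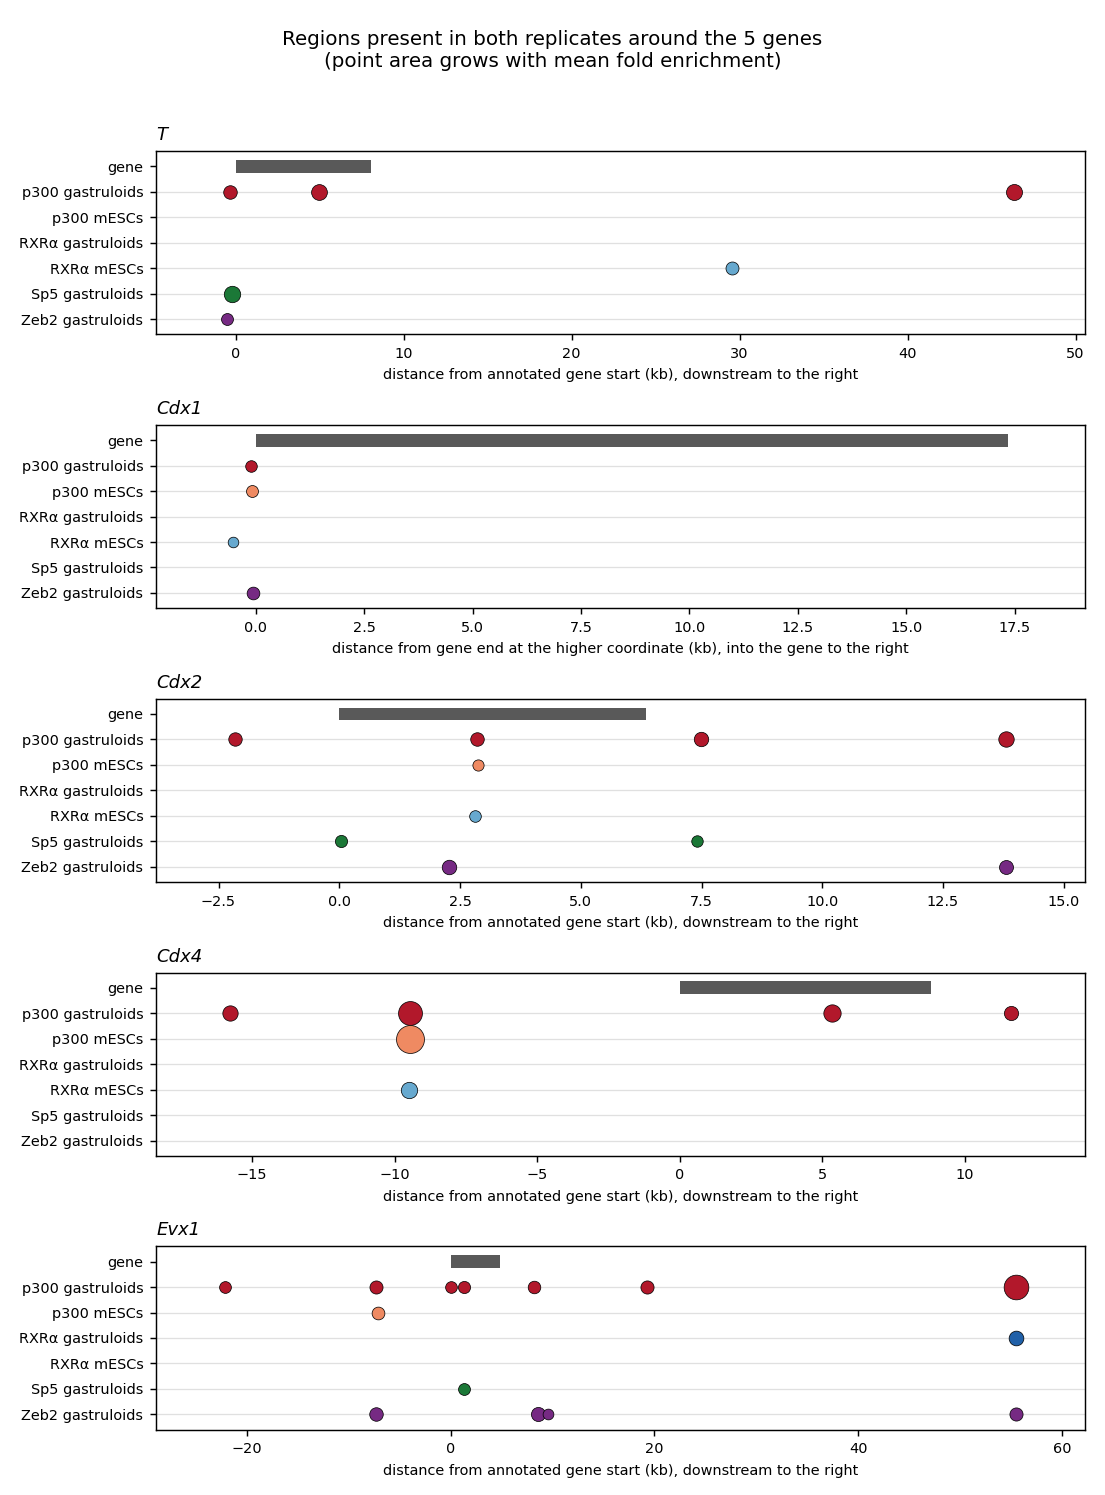
Regions found in both replicates around the 5 genes, by distance in kb from the annotated gene start (for Cdx1, from its end at the higher coordinate); the grey bar is the gene and point area grows with the authors' fold enrichment, averaged over the 2 replicates. p300 regions of gastruloids number 19 and lie at all 5 genes, against 4 of mESCs, and the largest points are those 9.5 kb before Cdx4 and 55.5 kb after the start of Evx1.

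p300 was found at all 5 genes in gastruloids and was less widespread in mESCs. There were 7 gastruloid regions at Evx1, 4 at Cdx2, 4 at Cdx4, 3 at T and 1 at Cdx1. In mESCs there was 1 region each at Evx1, Cdx2, Cdx4 and Cdx1 and none at T. The absence at T holds for regions with an end of T as the nearest: 5 mESC p300 regions lay within 100 kb of T, 3 of them nearest to T2, 1 to Prr18 and 1 to LOC115486424, a predicted gene that overlaps the start of T. Among all protein-coding genes, 68.3% had a p300 region in gastruloids and 49.3% had one in mESCs. By library, the peaks at the 5 genes numbered 19 and 27 in the gastruloid lists and 7 and 4 in the mESC lists, so both gastruloid libraries had more. The gastruloid lists were also longer over the whole genome, with 63117 and 75346 peaks against 44506 and 35371 in mESCs. At least 3 p300 regions of gastruloids lay at 4 of the 5 genes (26.2% of all genes), at least 4 at 3 of them (17.4%) and at least 7 at Evx1 alone of the 5 (5.88%). With 2 libraries against 2, an exact permutation test cannot give a p below 0.333, and none was used.

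Of the 19 gastruloid regions, 13 overlapped no peak of either mESC library and are called gastruloid-only. This share, 68.4%, was close to the 64.0% of all 42519 gastruloid p300 regions given to a gene. The 13 were 5 at Evx1, 3 at T, 3 at Cdx2 and 2 at Cdx4. No region was mESC-only, so gastruloid-only regions were 13 of 13 of those found in a single cell type, against 71.1% over all genes. Having no mESC-only region beside 2 or more gastruloid-only ones held for 4 of the 5 genes, all but Cdx1, and for 12.6% of all protein-coding genes. With p300 lists cut to 35371 peaks each, the number of gastruloid-only regions was 11. It was 21 without the first gastruloid library, where each peak of the second counts as a region, and 1 region was mESC-only without the second mESC library. A further 2 regions, 5.3 kb into Cdx4 and 1.3 kb into Evx1, were listed in the first mESC library alone, with folds of 5.12 and 3.89.

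All 4 p300 regions of mESCs were also gastruloid regions, where 44.4% of all assigned mESC regions were, so every place with p300 in both mESC libraries at these genes was listed again in gastruloids. A shared region lay at 4 of the 5 genes, all but T, and at 31.6% of all genes. In the other direction, 4 of 19 gastruloid regions (21.1%) were shared, against 26.3% over all genes. These counts are small and depend on the lists. With p300 lists of equal length, 2 mESC regions were left and 2 gastruloid regions were shared. With a −log10 q of at least 5, these numbers were 3 and 3.

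**Figure D2:**
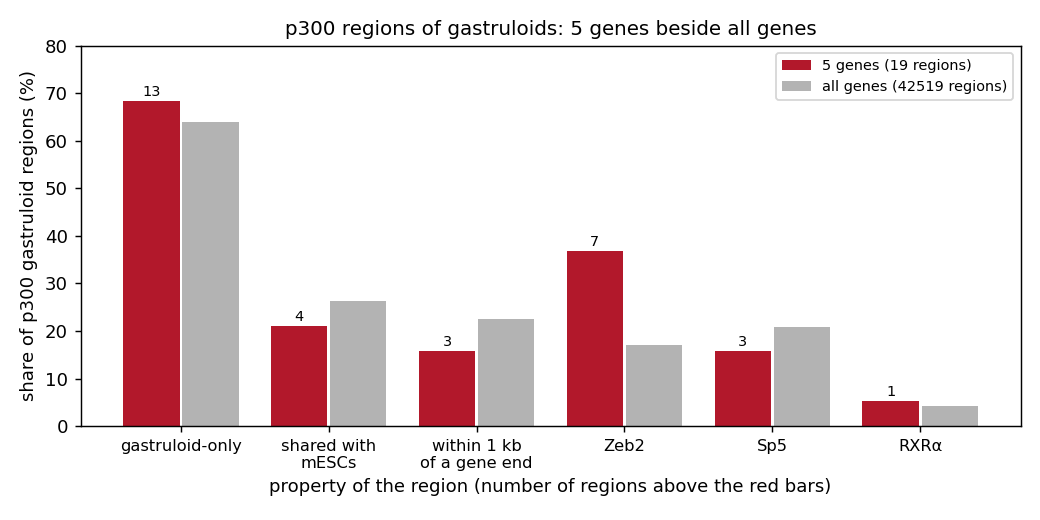
Share in percent of the p300 gastruloid regions with each property, for the 19 regions at the 5 genes (red, with the number of regions above the bar) and for all 42519 assigned regions (grey). The shares that are gastruloid-only stand at 68.4% and 64.0%; those that also hold a Zeb2 region stand at 36.8% and 17.1%.

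At T, all 3 p300 regions were gastruloid-only. The first had its summit 327 bp before the start (chr17:8433273-8434366), with folds of 6.12 and 6.54, from 55 and 43 fragments. The fold, here and below, is the authors' enrichment of the summit over the local background, in replicates 1 and 2. The second lay 4955 bp past the start, inside the gene, with folds of 8.55 and 9.85. The last lay 38286 bp beyond the far end of T (chr17:8480548-8480943), with folds of 8.77 and 10.2. None of the 4 mESC libraries of p300 and RXRα had a peak at these last 2 places.

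The start of T was also the strongest Sp5 region of the 5 genes, with folds of 13.5 and 6.72 from 82 and 40 fragments. Its mean fold was above that of 80.2% of all Sp5 regions. Zeb2 was present over the same stretch, with folds of 5.24 and 3.78 and a summit 547 bp before the start. These folds came from 53 and 14 fragments over local backgrounds of 9.31 and 2.97. The mean fold of this Zeb2 region was above that of 9.06% of all Zeb2 regions. p300, Sp5 and Zeb2 were thus all listed in both replicates there, but no Zeb2 region of T was left with peaks of a −log10 q of at least 5 alone. RXRα was listed at this place in the first mESC library alone, at a fold of 2.73. The annotation has a predicted gene, LOC115486424, that overlaps the start of T (8432660 to 8434528), and regions nearer to an end of that gene than to one of T were given to it.

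RXRα had 1 region at T in mESCs, 21482 bp beyond the far end of the gene, with folds of 5.83 and 5.51 and 22 fragments in each library. No p300, Sp5 or Zeb2 library had a peak there. In gastruloids the first RXRα library had a peak with a fold of 10.8 at the p300 region beyond T, and the first Zeb2 library had one with a fold of 9.5. Neither factor was listed there in its second replicate, so this place is not counted as a region of either.

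At Cdx2, 3 of 4 p300 regions were gastruloid-only. They lay 2166 bp before the start (folds of 5.17 and 7.20), 1145 bp beyond the far end of the gene (5.67 and 9.14) and 7459 bp beyond it (chr5:147293208-147293714; 7.77 and 9.65). The last of these held Zeb2, with folds of 7.95 and 5.7. Its Zeb2 summit was 1 bp from that of p300, the smallest such gap at the 5 genes. The middle one held Sp5, with folds of 3.43 and 4.71 and 13 and 19 fragments, a weak region above only 3.48% of Sp5 regions. Sp5 had a second region at Cdx2, 44 bp past the start and inside the promoter printed above, with folds of 5.20 and 4.43. p300 was listed there in the second gastruloid library alone, at a fold of 2.57.

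The fourth p300 region of Cdx2, inside the gene 2848 bp past its start (chr5:147304150-147305611), was present in both cell types. Its summit held 131 and 98 fragments in gastruloids, over local backgrounds of 20.1 and 14.6, and 17 and 14 fragments in mESCs, over 3.57 and 3.10. As folds these were 6.27 and 6.35 in gastruloids and 3.94 and 3.66 in mESCs. Fragment numbers depend on depth and were not scaled between libraries, so no difference in height is drawn from them. It held the strongest Zeb2 region of the 5 genes, with folds of 8.25 and 6.75 from 149 and 37 fragments, and an RXRα region of mESCs with folds of 5.20 and 3.25. With the first Sp5 library, 9 of the 12 libraries had a peak there, the most of any place at these genes.

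At Cdx4, the X-linked member of the family, 2 of 4 p300 regions were gastruloid-only, 15786 bp before the start (folds of 9.72 and 7.41) and 2804 bp beyond the far end (6.43 and 7.80). Another, inside the gene, had folds of 10.7 and 12.1 in gastruloids. The strongest lay 9460 bp before the start (chrX:103311735-103312236) and was shared. In gastruloids it had folds of 21.7 and 24.9, from 138 fragments (95% Poisson interval 116 to 163) and 106 fragments (86.8 to 128). In mESCs it had folds of 32.8 and 32.3, from 1036 fragments (974 to 1101) and 753 fragments (700.2 to 809). It stood above 99.4% of p300 regions in gastruloids and above 99.9% in mESCs. Local backgrounds at this region were 5.42 and 3.30 fragments in gastruloids and 30.7 and 22.4 in mESCs. The intervals cover counting error only, and fragment numbers were not scaled between libraries, so no difference in height is drawn from them.

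RXRα was present at the same place in mESCs, with folds of 11.6 and 8.49 from 49 and 32 fragments, and in neither gastruloid library. Cdx4 had no Sp5 peak in either library and no Zeb2 region. Zeb2 peaks were listed in 1 library each, 32.3 kb before the start and 0.6 kb past it in the first and 5.3 kb past it in the second. Cdx4 was thus the 1 member of the 5 whose gastruloid p300 regions held none of RXRα, Sp5 and Zeb2 in both gastruloid replicates.

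At Evx1, 5 of 7 p300 regions were gastruloid-only. Of these, 2 had low folds, each above no more than 12.2% of gastruloid regions. The region at the start itself, with its summit 30 bp past the start, had folds of 4.18 and 4.41. They came from 36 and 30 fragments over local backgrounds of 7.86 and 6.03. That 22157 bp before the start had 4.34 and 4.38, from 14 and 10 fragments over 2.45 and 1.51. The other regions of this class lay 8.2 kb past the start (5.66 and 4.74), 19.3 kb past it (6.51 and 5.22) and 55.5 kb past it. The last was the strongest p300 region of the 5 genes in gastruloids, 50579 bp beyond the far end of Evx1 (chr6:52368651-52369249), with folds of 22.8 and 27.2 from 278 and 239 fragments, above 99.7% of gastruloid regions. It was absent from all 4 mESC lists of p300 and RXRα.

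This distant region was the 1 place at the 5 genes with RXRα in both gastruloid libraries. RXRα had folds of 11.7 and 3.78 there, from 44 and 10 fragments, and the second value lies near the threshold of its short list, at a −log10 q of 1.83. Zeb2 was also present, with folds of 6.50 and 5.21, and the RXRα and p300 summits were 10 bp apart. The next protein-coding gene in this direction is Hibadh, 228 kb from Evx1; the interval between them is known in the mouse for limb enhancers of Hoxa genes, and 52.6 kb separate Evx1 from Hoxa13 on the other side.

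Zeb2 had 4 regions at Evx1 and 2 at Cdx2; with peaks of a −log10 q of at least 5 alone, it had 1 at Evx1 and 2 at Cdx2. Beside that in the distant region, they lay 7304 bp before the start (folds of 8.12 and 4.49), where p300 was shared by both cell types (4.70 and 6.90 in gastruloids, 4.31 and 6.50 in mESCs), and 8.5 kb and 9.5 kb past the start (8.18 and 5.86, and 2.98 and 3.75). The last had no p300. Sp5 had 1 region, 1349 bp past the start inside the gene, with folds of 5.04 and 3.87.

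Cdx1 had regions at 1 place, its end at the higher coordinate, and p300 was listed there in both cell types. p300 had folds of 3.68 and 4.66 in gastruloids and 4.45 and 4.58 in mESCs, with summits 112 bp and 92 bp from that end. Zeb2 had folds of 6.52 and 4.20 in gastruloids. RXRα had folds of 3.62 and 2.82 in mESCs, from 92 and 69 fragments over local backgrounds of 24.7 and 23.8. The mean fold of this RXRα region was above that of 2.05% of RXRα regions. RXRα had no peak there in gastruloids, and Sp5 had none. A predicted gene, Gm52351, overlaps this end of Cdx1 and the region lies inside it.

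**Figure D3:**
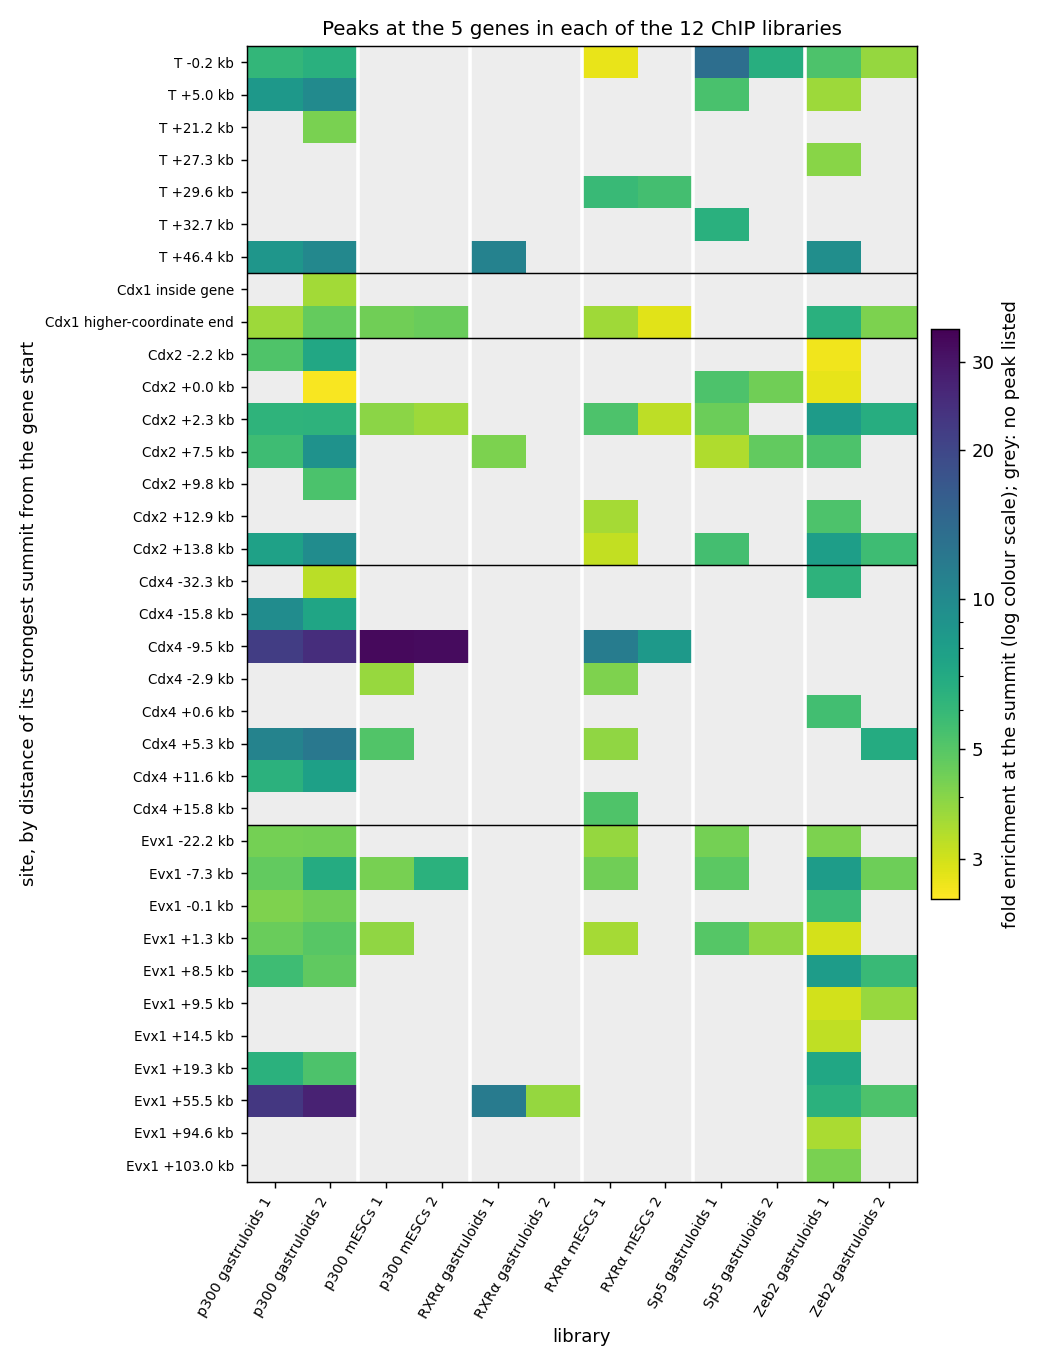
Fold enrichment (log colour scale) at the 35 places around the 5 genes with a peak in at least 1 of the 12 ChIP libraries, 1 row each, labelled by the distance in kb from the gene start; grey cells had no listed peak. The second RXRα gastruloid library has 1 coloured cell and the first Zeb2 library 24, against 9 in the second, and the row at Cdx2 +2.3 kb has the most coloured cells, 9.

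Of the 3 factors, Zeb2 was at the most gastruloid p300 regions of the 5 genes. Zeb2 was at 7 of them (36.8%; 17.1% over all genes), Sp5 at 3 (15.8%; 20.9%) and RXRα at 1 (5.26%; 4.28%), and 10 held none of the 3. At least 1 of the 3 factors was at 9 of 19, against 29.6% of all assigned regions, and the number was 15 without the second Zeb2 library. Counting peaks of any single factor library, it was 16 of 19 (84.2%; 54.0%). The Zeb2 count rests on the short second Zeb2 list. With peaks of a −log10 q of at least 5 alone, Zeb2 was at 3 of 18 p300 regions. The share over all genes at this cut was not computed, so the 2 cannot be set side by side there. Peaks of the first Zeb2 library were at 15 of 19 regions (78.9%; 45.2% over all genes), and the number of Zeb2 regions at the 5 genes was 24 without the second library and 9 without the first. For Sp5 the count of regions was 10 without the second library and 4 without the first. Seen from the factors, 7 of 8 Zeb2 regions coincided with p300 (78.1% over all genes), 3 of 4 Sp5 regions (84.9%) and the 1 RXRα region (86.0%). Sp5 regions were found at 3 of the 5 genes and at 39.9% of all genes, Zeb2 regions at 4 of the 5 and at 33.0%.

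Sp5 regions at the 5 genes all lay within 1349 bp of a gene end, where the median over all assigned Sp5 regions was 285 bp. Zeb2 regions lay 75 to 50613 bp from a gene end. p300 regions of gastruloids had a median distance of 3327 bp, against 11410 bp over all assigned regions, although only 3 of 19 were within 1 kb of an end (15.8%; 22.6%). Of the 18 p300 regions at genes with a known start, 6 were upstream, 5 inside the gene and 7 downstream. Their fold was that of the list: a median of 6.33 at the 5 genes and 6.28 over all regions. Where Zeb2 lay in a p300 region of the 5 genes, the summits were 1 to 566 bp apart. The median gap was 49 bp, against 133 bp over all assigned regions. For Sp5 the gaps were 24 to 132 bp, with a median of 94 bp (115 bp over all). The 1 gap for RXRα was 10 bp, where the median over all was 72 bp.

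RXRα differed from p300 in the direction of its lists. All 4 RXRα regions of mESCs, 1 each at T, Cdx1, Cdx2 and Cdx4, were mESC-only, as were 63.5% of all assigned RXRα regions of mESCs, and 1 region, at Evx1, was gastruloid-only. Of the 5 regions of a single cell type 1 was thus gastruloid-only, where the share over all genes was 2.58%. RXRα regions of mESCs were at 49.4% of all genes, and those of gastruloids at 8.74%. Of the 4, 3 coincided with an mESC p300 region (42.4% over all genes) and 3 with a gastruloid one (45.3%), and at these 3, in Cdx1, Cdx2 and Cdx4, p300 was listed in both cell types while RXRα was listed in mESCs alone. In single libraries the 5 genes had 3 and 1 RXRα peaks in gastruloids and 13 and 4 in mESCs. These counts rest on unequal lists: without the second mESC library 13 regions were mESC-only, without the second gastruloid library 3 were gastruloid-only, and with lists of 3111 peaks each there were 0 mESC-only regions and 1 gastruloid-only region.

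**Figure D4:**
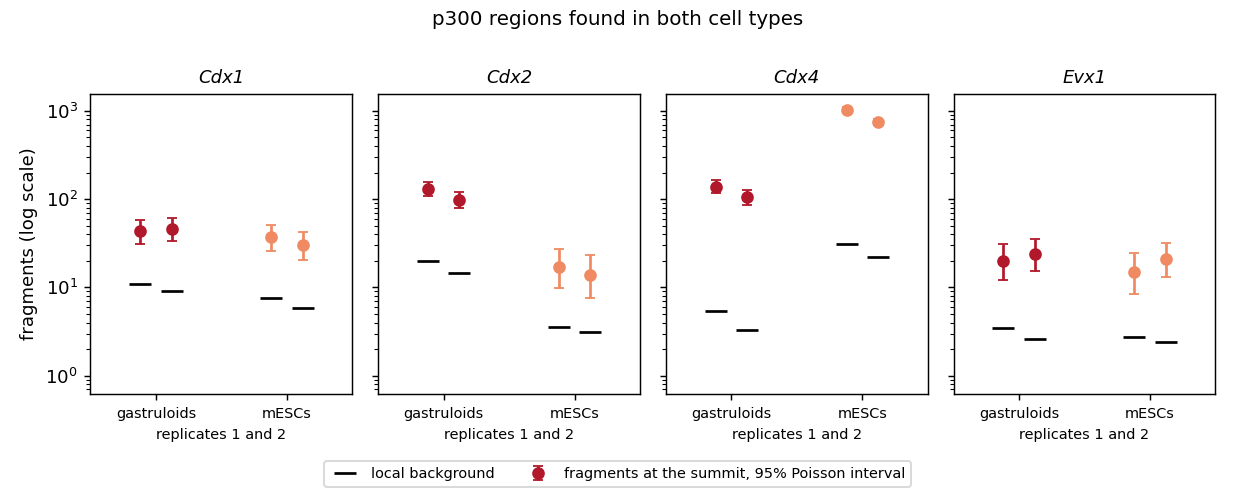
Fragments at the p300 summit (points with 95% Poisson intervals, log scale) and local background (black dashes) in each library at the 4 regions found in both cell types, gastruloids on the left and mESCs on the right of each panel; libraries were not scaled to each other. At Cdx4 the counts are 138 and 106 in gastruloids and 1036 and 753 in mESCs, and at Cdx2 131 and 98 in gastruloids and 17 and 14 in mESCs.

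Other genes of the posterior growth zone were described from a list of 34. Of these, 29 had more gastruloid-only than mESC-only p300 regions, 2 had equal numbers, 2 had fewer and 1 had neither. Over all protein-coding genes, 43.9% had more and 11.2% had fewer. These shares include genes without any p300 region. Of all genes 68.3% had a p300 region in gastruloids, while every gene of the list had one, so the shares are not like for like. In the list the median was 3 gastruloid-only regions a gene. In all, 117 gastruloid-only and 29 mESC-only regions were counted (80.1% of 146, against 71.1% over all genes). The feedback gene Axin2 and the Wnt effector gene Lef1 each had 9 gastruloid-only and 0 mESC-only regions. Cyp26a1, a retinoic acid-degrading enzyme gene, had 8 and 0, and Greb1 had 7 and 0. Sox2, a factor of pluripotent and neural cells, had 6 and 5, and the streak gene Eomes 5 and 2. The 2 with fewer, named after their values were seen, were Fgf4 (0 and 2) and Pou5f1 (0 and 1), genes active in pluripotent cells. Sp5 and Zeb2 were each at 29 of the 165 gastruloid p300 regions of this list (17.6%), so the share with Zeb2 was near that over all genes.

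A list of 21 posterior Hox genes was also described, and not all of them need be Cdx targets. Of these, 14 had more gastruloid-only than mESC-only p300 regions and 7 had no region of either class. Of their regions found in a single cell type, 24 of 25 were gastruloid-only (96.0%, against 71.1% over all genes). Hoxb8 had 4 gastruloid-only and 0 mESC-only regions, as did Hoxb9. As a view of cell identity from p300 alone, 10 loci of naive pluripotency had 19 of 47 regions gastruloid-only (40.4%) and 5 loci of mesoderm 35 of 37 (94.6%), beside the same 71.1%. Of the 35, 16 were at Pax3 and 10 at Uncx, both singled out after their values were seen; Tbx6 and Msgn1, with 2 each, are also in the list of 34.

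Genes were also sought with the same numbers of gastruloid-only, shared and mESC-only p300 regions and of gastruloid p300 regions with Sp5, Zeb2 and RXRα. T had 71 such genes, Cdx1 62, Cdx2 7 and Cdx4 121, while no other gene had the combination of Evx1.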

How the data were processed

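Each of the 14 libraries had 1 deposited list of peaks, with replicates not pooled. The submitters' processing notes name fastp 0.20.1, BWA 2.2.1 and MACS2 2.2.7 and the build GRCm38.p6 (and mm10), without roles; the use of an input as control is not given in the sources used here. The deposited columns were a score of 10 times the −log10 q, the authors' fold enrichment (a ratio over local background), the −log10 p, the −log10 q and the summit position. The smallest deposited −log10 q, 1.30, corresponds to a q-value of 0.0499, so weaker sites are not listed.

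Peaks on the 21 main chromosomes that overlapped no input peak were used, with an overlap of at least 1 bp, in Python 3.11.15 with numpy 2.4.6 and scipy 1.17.1. The strongest summit was that of the highest fold. Gastruloid-only regions overlapped no peak of either mESC library, mESC-only regions were the reverse, and shared regions overlapped a region of the other cell type. Fragments and local background at a summit were recovered from the fold and −log10 p; of 8353 peaks checked 99.99% came out within 0.01 of a whole number. Depth per library is not given, and intervals cover counting error only. Genes, their ends and promoters came from RefSeq (GRCm38.p6); strand was known only for genes with a listed promoter, and exons were not used. Every region at the 5 genes is named by gene and place. The members and lists were chosen with earlier results of these data known, so no test over them was run. The builder of regions, the assignment and the recovery of fragments were tested on simulated data.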

Additional observations from a re-analysis of the deposited data

Results flagged for a closer look

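Counts of peaks at the 5 genes moved in opposite directions for the 2 proteins profiled in both cell types. For p300 the lists held 19 and 27 peaks in gastruloids and 7 and 4 in mESCs. For RXRα they held 3 and 1 in gastruloids and 13 and 4 in mESCs. Both p300 gastruloid libraries thus had more peaks than both mESC libraries, and both RXRα gastruloid libraries had fewer. The difference between the proteins was not tested. List length moved with it: the p300 gastruloid lists were the longer ones (63117 and 75346 peaks, against 44506 and 35371 in mESCs), and for RXRα the lists held 29867 and 3111 peaks in gastruloids and 49661 and 28112 in mESCs. Per 10000 peaks of its list, p300 had 3.01 and 3.58 peaks at the 5 genes in gastruloids and 1.57 and 1.13 in mESCs, so its direction was the same. RXRα had 1.00 and 3.21 in gastruloids and 2.62 and 1.42 in mESCs, so the libraries of the cell types overlapped. With lists of equal length, 11 p300 regions were gastruloid-only and 0 mESC-only; for RXRα these numbers were 1 and 0.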

How the results depend on the processing

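The 7 main counts were recomputed under other settings. This gave 77 values, of which 58 stayed within 1.5 times the value reported. Keeping peaks at input peaks, requiring an overlap of 50% of the shorter peak and choosing summits by −log10 q moved none beyond this. With a −log10 q of at least 5, RXRα gastruloid-only regions numbered 0, Zeb2 regions 3 and p300 regions with any factor 5. With gene ends within 20 kb, RXRα gastruloid-only regions numbered 0, as the distant Evx1 region drops out. With lists of equal length there were 0 RXRα mESC-only regions and 1 p300 region with any factor, where all gastruloid lists were cut to 3111 peaks. Leaving out 1 library at a time gave 13 to 21 p300 gastruloid-only and 0 to 1 p300 mESC-only regions. For RXRα it gave 1 to 3 gastruloid-only and 4 to 13 mESC-only regions. There were 4 to 10 Sp5 and 9 to 24 Zeb2 regions, and 9 to 15 p300 regions with any factor. Each peak of the library left then counts as a region, so many counts are higher by construction, while others were unchanged. Leaving out an mESC library also leaves fewer mESC peaks to overlap: p300 gastruloid-only regions numbered 15 without the first. Counting every region within 100 kb of the 5 genes, whichever gene is nearest, an alternative chosen after seeing the data, gave 45 p300 gastruloid-only, 4 p300 mESC-only, 13 RXRα mESC-only, 11 Sp5 and 18 Zeb2 regions, and 20 p300 regions with any factor. No paired analysis was possible because these are counts of listed regions with no test. Of 209 values of 21 other counts, 166 stayed within 1.5 times.

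Depth limits what is listed. In 95% of the peaks sampled from each list the summit held at least 7 to 14 fragments, depending on the library. Weaker binding is thus not seen, and a place missing from a list is not shown to be unbound.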

Other observations

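Peaks listed in only 1 library of a group numbered 42 at the 5 genes, beside the 40 regions. Of these 16 came from the first Zeb2 library, 9 from the first RXRα mESC library, 6 from the first Sp5 library and 5 from the second p300 gastruloid library. At the start of Evx1 the first Zeb2 library had a peak with a fold of 5.81 and 73 fragments, beside 36 and 30 fragments of p300 in gastruloids.

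More p300 lay around these genes than was given to them. Within 100 kb of T were 13 further p300 regions in gastruloids and 5 in mESCs that had another gene end nearer, 8 and 3 of them nearest to T2, the neighbour on the upstream side. At Cdx2 there were 9 and 1, among them 4 gastruloid regions nearest to Pdx1, a pancreas factor gene. At Evx1 there were 6 and 0, all nearest to Hoxa genes.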
